A study of Arabidopsis thaliana with 97 samples.

Results

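In 198 Arabidopsis thaliana loci, more tags were counted from the strand opposite the annotated gene than from the gene itself. They were selected on summed tag counts from the 24358 nuclear loci with at least 1 antisense tag: the antisense tags, summed over 96 libraries, had to reach 1000 and to exceed the summed sense tags of the same locus. Because tag counts chose these loci, their excess of antisense tags is a description and was not tested. The remaining 487 antisense loci of 1000 tags or more did not exceed their sense locus.

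Leaf discs of 5-week-old plants were floated on 100 nM flg22, the 22-residue flagellin peptide that the receptor kinase FLS2 perceives, for 8, 15, 30, 45, 60, 120 or 180 min, or on water for 8 min. Each treatment was sampled 3 times in npr1-1, jar1-1 and ein2-5, mutant lines affected in salicylic acid, jasmonate and ethylene signalling, and in the wild type Col-0, which gave 32 groups of 3 libraries. The mutants were compared with Col-0 and flg22 with water of the same genotype. Water was sampled at 8 min only, so that flg22 and time in the dish cannot be told apart at later times. The 8 libraries of 1 replicate of 1 genotype shared a sequencing lane, so that genotype and lane cannot be told apart either. The Col-0 and npr1-1 lanes were on 1 flow cell, and those of jar1-1 and ein2-5 were run apart on others, so that run and genotype cannot be told apart for these lines. The study calls the replicates biological. Whether each was taken from plants of its own is not given in the sources used here.

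The libraries held 388691 to 2415393 tags, and antisense tags made up 1.48% to 5.18% of them. Known genes were read against the labels. FRK1, WRKY22, WRKY33 and NHL10, which respond to flg22, were all higher in Col-0 after 60 min of flg22 than in water, the 4 leaf mesophyll genes summed to at least 2669 TPM in every library (tags per 1000000, scaled by TMM), and the 3 seed genes summed to at most 0.804 TPM. The root gene PYK10 reached 59.1 TPM and the pollen genes 2.49 TPM. EIN2 tags were fewer in ein2-5 (median 3.57 TPM) than in Col-0 (median 12.2 TPM), whereas NPR1 and JAR1 had medians of 49.8 and 31.5 TPM in their mutants and of 53.3 and 27.3 TPM in Col-0.

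Antisense transcripts are copied from the strand opposite a gene, and some, such as COOLAIR at FLC, are known to act on the gene they overlap. In tag sequencing of cDNA 3′ ends, reverse transcription starts from an oligo-dT primer at a run of A in the RNA, normally the poly(A) tail. The cDNA is then sheared, and the tag is read from the sheared end, a fragment's length upstream of that run. The study also reported poly(A) reads, which it traced to excess oligo-dT primer joined to the adapters. Most of the reads that its artefact filter removed were of this kind. Whether any such reads remain in the counts used here was not tested. A tag that fits several genes equally well was divided between them when the tables were made, which leaves values that are not whole numbers.

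The 198 loci fell into 3 kinds by these values and by the sequence of the gene, a division made after the values had been seen. In 168 loci the antisense value was not a whole number in at least 50% of the libraries with tags (shared-tag loci), and in 125 of them it was never whole. The other 30 loci had mostly whole values (whole-tag loci), 15 of them in every library. Among the 487 other antisense loci of 1000 tags or more, 17.9% were of the shared kind.

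A run of 20 or more uninterrupted A on the antisense strand of the gene was present in 132 of the 168 shared-tag loci (78.6%) and in 0 of the 30 whole-tag loci, where the longest run was 17. Of 24036 other antisense loci with a tag that could be matched to a gene, 0.545% had such a run, as did 5.76% of the 486 with 1000 tags or more and 0.768% of all 37899 nuclear genes. With a minimum of 15 bases the shares were 84.5% of shared-tag loci and 3.33% of whole-tag loci, against 4.06% of the other antisense loci. With 25 bases they were 26.2% and 0%, against 0.0458%. Looked at from the sequence, 291 nuclear genes had a run of 20 or more, 263 of these had antisense tags, 160 had at least 1000 and 132 were among the 198 loci. The runs lay in an intron in 82 loci, in an exon outside the coding sequence in 45, in an exon of a gene with no coding sequence in 5 and in a coding exon in none. The tables give 1 value per locus and strand, so that the position of the tags beside the run is not analysed here.

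The antisense strand around the run is shown for 6 loci with intronic runs, since these sequences set the largest group apart: 5 of the loci with the most antisense tags and 1 locus, AT1G51900, that rose with flg22. Sequences run 5′ to 3′ on the antisense strand in TAIR10.1, the RefSeq build, with the run in capitals.
AT1G65550 (chr1:24370421-24370450, plus strand): atttAAAAAAAAAAAAAAAAAAAAAAAAAA
MAF3 (chr5:25988106-25988135, minus strand): tttcttAAAAAAAAAAAAAAAAAAAAAAAg
AT2G42700 (chr2:17778531-17778560, minus strand): gatgAAAAAAAAAAAAAAAAAAAAAAAAAA
AT5G39770 (chr5:15924479-15924508, plus strand): cgcAAAAAAAAAAAAAAAAAAAAAAAAAAA
AT1G01830 (chr1:301924-301953, plus strand): aaagacAAAAAAAAAAAAAAAAAAAAAAct
AT1G51900 (chr1:19281598-19281627, plus strand): taaaccAAAAAAAAAAAAAAAAAAAActga
In 3 of the 6 windows the run reached the 3′ edge. The longest run, of 43 A, was in an intron of MEE27, and PRIN2, the locus with the most antisense tags, had a run of 29 in an exon outside its coding sequence. The part of these runs in the antisense counts was not tested.

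**Figure D1:**
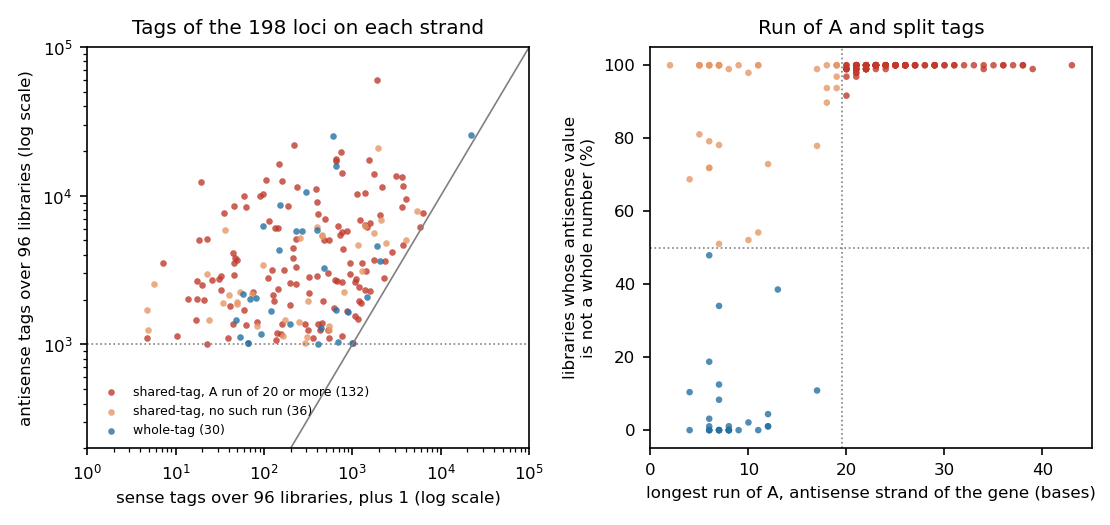
Left, antisense against sense tags of the 198 loci, summed over 96 libraries (log scales); the line marks equal tags and the dotted line 1000 antisense tags. Right, for each locus, the percentage of libraries whose antisense value was not whole against the longest run of A on the antisense strand; the 132 loci with a run of 20 or more all sit above 90%, and no whole-tag locus has a run longer than 17.

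The host genes were protein coding in 179 cases, and 9 were non-coding RNA genes, 9 pseudogenes and 1 a tRNA gene. Together the 198 loci held 1023160 antisense tags, 14.1% to 57.4% of all nuclear antisense tags of a library. The antisense strand carried a median of 92.3% of a locus's tags, and it exceeded the sense strand in all 96 libraries in 88 loci and in 42 libraries at the least. At the edge of the rule, AT4G32860 and AT5G46260 (1001 and 1007 antisense tags) were just inside, and RR17 and MYB114 (989.7 and 998.2) just outside. AT5G65760 and AT3G56130 had 1.01 and 1.04 times as many antisense as sense tags, and AT1G03730 and AT1G42980, just outside, 0.976 and 0.990 times.

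None of 8 loci known for an antisense transcript was among the 198. Their antisense tags ranged from 3 at CBF1 to 258 at CDF5, and FLC, with COOLAIR, had 108 antisense and 569 sense tags. MAF3, another MADS-box repressor of flowering in the FLC family, was among the 198, whereas its neighbour MAF4 had 32.5 antisense and 339.0 sense tags.

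The 12 loci with the most antisense tags were 8 loci with a run, 1 other shared-tag locus and 3 whole-tag loci. PRIN2 (AT1G10522), which takes part in plastid gene transcription, came first with 60459 antisense and 1880 sense tags. In Col-0 its antisense level was 329, 218 and 501 TPM at 60 min of flg22 and 293, 195 and 186 TPM in water (log2 change 0.64 ± 0.87 (SE), adjusted p = 0.571). Its sense tags fell, with 6.43, 9.45 and 11.3 TPM at 60 min and 35.8, 44.4 and 39.2 TPM in water (log2 change -2.12 ± 0.31 (SE), adjusted p = 2.28e-08). The antisense groups overlapped, although within each lane the flg22 library was the higher (3 of 3), and with the lane as a block the antisense change was not called (log2 change 0.58, adjusted p = 0.0746, edgeR).

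Of the same kind were AT1G65550, a xanthine/uracil permease family gene, AT1G01830 (ARM repeat family), AT3G49310 (major facilitator family), MAF3, AT2G42700 (a vesicle docking protein), AT5G39770 and GLR3.3, a glutamate receptor-like channel. They had 14236 to 21762 antisense tags, and none of them was called at 60 min in Col-0 in the fit without a lane term. Their changes with the lane as a block are not given here, and a missed call does not show that a locus did not respond. Of the tags of AT3G49310, 81.3% came from the 8 libraries of jar1-1 replicate 3, whereas no lane held more than 22.4% of the tags of any other of the 12 loci. GLR3.3 came nearest, with 83.6, 89.4 and 141 TPM at 60 min and 38.5, 41.2 and 39.9 TPM in water (log2 change 1.39 ± 0.78 (SE), adjusted p = 0.133). All 3 flg22 values of GLR3.3 lay above the water values. AT4G24730, a shared-tag locus whose longest run was 11, had 138, 93.6 and 253 TPM at 60 min and 109, 95.9 and 83.6 TPM in water (log2 change 0.74 ± 0.85 (SE), adjusted p = 0.49).

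Of the whole-tag loci among the 12, 1 was not called and the others rose. BTF3, which encodes a subunit of the nascent polypeptide-associated complex, carried 25513 antisense and 22173 sense tags and was not called at 60 min (213, 185 and 80.8 TPM against 223, 322 and 206 TPM in water). AT4G38545, a long non-coding RNA gene, had antisense levels of 356, 424 and 375 TPM at 60 min and 154, 117 and 119.8 TPM in water (log2 change 1.56 ± 0.24 (SE), adjusted p = 6.91e-08). Its few sense tags rose as well (log2 change 2.38 ± 0.61 (SE), adjusted p = 9.15e-04). The locus overlaps AT4G38540 and PLC1, a phospholipase C gene, on the other strand. They held 148 and 257.5 sense tags of their own against the 25092 antisense tags of AT4G38545. Sense PLC1 rose as well, from few tags (4.02, 9.45 and 1.62 TPM at 60 min and 0.543, 1.29 and 0 TPM in water, log2 change 2.81 ± 0.88 (SE), adjusted p = 0.00605). Sense AT4G38540 had at most 1.09 TPM in these libraries. AT3G21300 is described with the rises below.

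The loci with a run moved together from library to library. Over the 96 libraries the median correlation between 2 of these 132 loci was 0.70 for log2 TPM, and 0.86 for the deviation from the group mean, against 0.30 and 0.27 for the 36 other shared-tag loci and 0.02 and 0.06 for the whole-tag loci. These are descriptions across libraries that share lanes and depth, and tags divided between loci are in part the same tags.

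The summed share of the 132 loci with a run followed the lane. Its lane median was 1.03% of all tags in jar1-1 replicate 2, 1.05% in npr1-1 replicate 2 and 0.930% in ein2-5 replicate 2, and 0.143% in ein2-5 replicate 3. The Col-0 lanes lay between 0.422% and 0.483%. Single libraries ran from 0.121% to 2.10%. The lanes of 1 mutant line were thus further apart than those of Col-0, and in each mutant line the libraries of replicate 2 lay above all those of its other lanes. The 30 whole-tag loci together held 0.0665% to 0.189% of the tags of a library, and their lanes overlapped in every genotype.

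**Figure D2:**
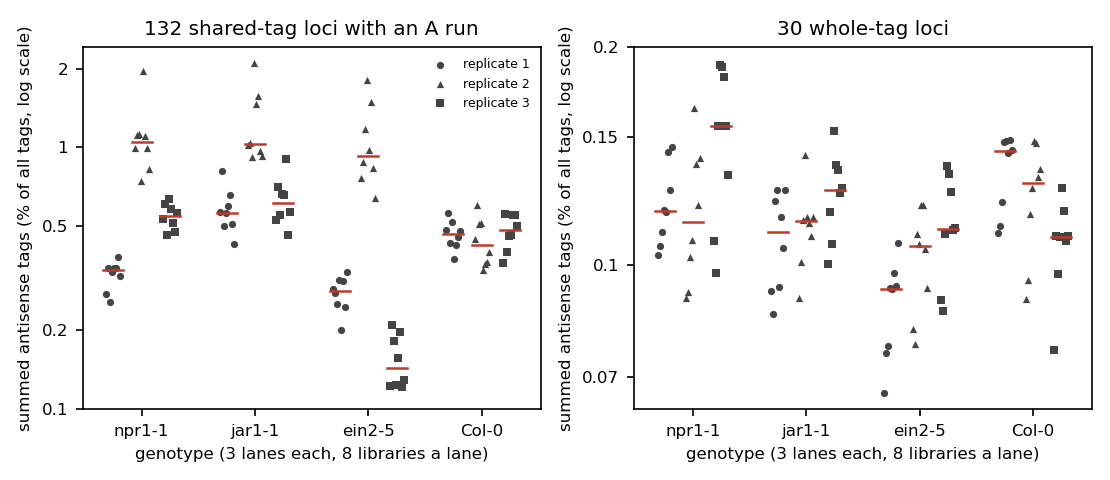
Summed antisense tags of the 132 loci with an A run (left) and of the 30 whole-tag loci (right) as a percentage of all tags in a library (log scales), by genotype and replicate; each point is a library, symbols mark replicates and red lines the median of the 8 libraries of a lane. On the left, lane medians ran from 0.143% to 1.05%; on the right, all libraries lay between 0.0665% and 0.189%.

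PRIN2 shows the same in a single locus. Its lane medians over 7 flg22 libraries were 240.4, 828 and 473 TPM in npr1-1, 596, 1259 and 392.1 TPM in jar1-1, 237, 965 and 92.5 TPM in ein2-5 and 329, 239 and 363 TPM in Col-0, for replicates 1, 2 and 3. Replicate 2 was the highest lane in each mutant line and the lowest in Col-0.

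All 198 loci passed the filter on low counts, and each was tested in a model fitted over 16816 sense and antisense features (edgeR quasi-likelihood F-test, Benjamini-Hochberg adjustment, called under 0.01). In Col-0 after 60 min of flg22, antisense tags rose at 20 of the 198 loci and fell at 11 (15.7%), when 37.3% of all features tested were called (16.9% higher and 20.3% lower). By kind, 17 of the 30 whole-tag loci were called (56.7%), 6 of the 36 other shared-tag loci (16.7%) and 8 of the 132 loci with a run (6.06%). These shares come from the fit without a lane term and depend on that choice. The median log2 change of the 198 loci was 0.34, and that of all features was -0.23. The rule summed libraries of 7 flg22 times and of water at 8 min only, so that loci rising with flg22 were more readily chosen. How far that choice shapes the median and the counts of rises and falls was not tested. With the lane as a block 66 loci were called, 51 higher and 15 lower, 48 of them shared-tag loci, when 45.0% of all features were. Scaled by total tags the counts were 16 higher and 14 lower, and without plastid and mitochondrial loci 21 higher and 7 lower. Without replicate 1 or replicate 3, 19 and 18 loci were called.

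Over the time course in Col-0, 1 locus was called at 8 min (AT1G14650, when 1.20% of all features were called) and 12 by 15 min (12.8%). There were 22 calls at 30 min (18.8%), 28 after 45 min (30.3%), 21 after 120 min (35.2%) and again 21 after 180 min (32.5%). The call at 8 min was lost with DESeq2 and without any 1 of the replicates. In leaf discs, fewer cells of a type and less RNA per cell cannot be told apart. Over all 7 times together, 40 loci changed against water, 25 higher and 15 lower on average, when 56.2% of all features did. The lane block raised these counts to 23, 36, 59, 62 and 68 loci in the order 15, 30, 45, 120 and 180 min, when 19.9%, 24.7%, 37.1%, 41.9% and 39.2% of all features were called, and to 106 over all times (65.3%). By the largest change at any time, the whole-tag loci that were higher reached their peak at 15 min in 2 cases, at 30, 45 and 60 min in 3 each, and at 120 and 180 min in 2 each.

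**Figure D3:**
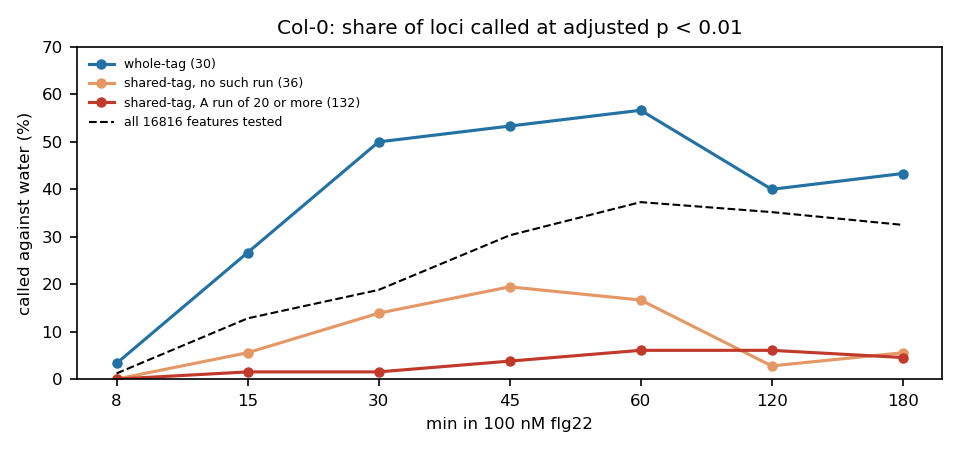
Percentage of loci called against water in Col-0 at each time of flg22 (adjusted p under 0.01), for the 30 whole-tag loci, the 36 other shared-tag loci and the 132 loci with a run of 20 or more, with all 16816 features tested as a dashed line. At 60 min 56.7% of whole-tag loci were called, 16.7% and 6.06% of the other kinds, and 37.3% of all features. The fit had no lane term, and with the lane as a block more shared-tag loci were called at 60 min.

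AT1G78865 is a non-coding RNA gene that had 0 antisense tags in all 3 water libraries. It had 18.5, 36.1 and 25.1 TPM at 60 min, at least 41.5-fold higher than the level of 3 tags over the water group, and at least 80.4-fold higher at 30 min (39.4, 67.3 and 45.1 TPM). The test gave adjusted p = 3.24e-11 at 60 min. By 180 min it was back at 0.963, 1.08 and 3.62 TPM. Every library from 15 to 180 min lay above the water libraries.

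AT3G21300, which encodes an RNA methyltransferase family protein, reached 288, 396 and 352 TPM on its antisense strand at 60 min, against 3.80, 0.644 and 7.53 TPM in water (log2 change 6.45 ± 0.60 (SE), adjusted p = 6.65e-15). Its sense tags stayed low, with 4.82, 9.45 and 4.85 TPM at 60 min and 1.63, 7.73 and 5.27 TPM in water (log2 change 0.41 ± 0.58 (SE), adjusted p = 0.59). The groups were apart on the antisense strand and overlapped on the sense strand. AT3G21295, a Tudor/PWWP/MBT family gene that overlaps AT3G21300 on the other strand, also rose (16.1, 25.8 and 24.2 TPM against 6.51, 3.86 and 4.52 TPM in water, log2 change 2.11 ± 0.32 (SE), adjusted p = 9.75e-08). Where genes overlap on opposite strands, a tag antisense to one could belong to the other, and the tables do not settle which.

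TPPA (AT5G51460), a trehalose-6-phosphate phosphatase gene, had 50.7, 43.0 and 52.5 antisense TPM at 60 min and 0.543, 0.644 and 1.51 TPM in water (log2 change 5.69 ± 0.75 (SE), adjusted p = 1.72e-09). Sense TPPA had 1.61, 2.58 and 9.70 TPM and 3.26, 6.44 and 8.28 TPM (log2 change -0.33 ± 0.61 (SE), adjusted p = 0.68). The groups were apart on the antisense strand and overlapped on the sense strand of TPPA.

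AT1G14650, which encodes a protein with SWAP domains of the kind found in splicing factors, was the earliest locus called. Its antisense level in Col-0 was 0.543, 0.644 and 0 TPM in water (2 tags), 5.46, 5.79 and 4.88 TPM at 8 min, 114, 102 and 102 TPM at 30 min and 10.5, 7.73 and 9.70 TPM at 60 min. The ratio at 60 min to water was 22.0 (exact 95% interval 5.65 to 189, counting error only; log2 change 4.19 ± 0.72 (SE), adjusted p = 1.25e-06), and at 30 min it was 250 (68.6 to 2068). The time course was a short pulse with a peak at 30 min, and every flg22 library was above the water libraries. Sense AT1G14650 had 16.9, 12.03 and 11.3 TPM and 11.4, 10.3 and 16.6 TPM in water (log2 change 0.09 ± 0.40 (SE), adjusted p = 0.878).

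NRT1.9 (AT1G18880), a nitrate transporter gene, had 70.8, 67.9 and 62.2 antisense TPM at 60 min against 4.34, 1.29 and 6.03 TPM in water (log2 change 4.09 ± 0.48 (SE), adjusted p = 3.30e-11). CDPK1 (AT1G18890), a calcium-dependent protein kinase gene that overlaps it on the other strand, had 62.7, 49.8 and 36.4 TPM against 4.34, 1.29 and 3.77 TPM (log2 change 3.93 ± 0.60 (SE), adjusted p = 7.10e-08). Antisense tags of NRT1.9 and sense tags of CDPK1 thus rose side by side, with no overlap between the groups in either.

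AT1G51900, whose run of 20 A is printed above, was the shared-tag locus with the largest fitted rise: 73.2, 82.5 and 63.0 TPM at 60 min against 3.26, 5.15 and 2.26 TPM in water (log2 change 4.31 ± 0.43 (SE), adjusted p = 1.40e-13), after 169, 129.9 and 187 TPM at 45 min. Its sense tags had 4.02, 3.44 and 5.66 TPM and 1.09, 0 and 1.51 TPM (log2 change 2.25 ± 0.78 (SE), adjusted p = 0.0135) and missed the threshold. The antisense libraries of the 2 groups did not overlap.

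Another 4 whole-tag loci, chosen after their values were seen, rose at 60 min. AT1G56145, a leucine-rich repeat receptor kinase gene, had 24.9, 32.6 and 17.8 TPM against 3.80, 0 and 1.51 TPM in water (log2 change 3.68 ± 0.53 (SE), adjusted p = 1.76e-08), and its sense tags rose too (log2 change 2.24, adjusted p = 2.65e-04). AT3G57710, a protein kinase gene, had 9.65, 24.9 and 16.2 TPM against 3.80, 1.29 and 1.51 TPM (log2 change 2.83 ± 0.47 (SE), adjusted p = 6.10e-07). The others were AT4G38552 (log2 change 2.13 ± 0.54 (SE), adjusted p = 7.35e-04) and AT1G19950 (log2 change 2.10 ± 0.53 (SE), adjusted p = 6.69e-04). AT4G38552 lies opposite AT4G38550, which rose as well (log2 change 3.02, adjusted p = 3.30e-12) and had more sense tags (42679) than AT4G38552 had antisense tags (5894.5).

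Among the falls, AT3G52072, a long non-coding RNA gene, had 0 antisense tags in all 3 Col-0 libraries at 60 min, against 39.1, 37.3 and 38.4 TPM in water. Taken at 3 tags over the flg22 group, the level was at least 46.6-fold lower, and the test gave adjusted p = 3.10e-13. At 15 min it was still at 22.1, 19.4 and 25.4 TPM, and at 180 min at 8.67, 7.58 and 4.82 TPM, with 7.01, 3.10 and 1.55 TPM at 30 min in between.

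AT1G26218, another long non-coding RNA gene, had 0.804, 0 and 0.808 TPM at 60 min (2 tags) against 29.3, 42.5 and 37.7 TPM in water, a level 65.6 times higher in water (17.9 to 546; log2 change -5.83 ± 0.73 (SE), adjusted p = 3.54e-10). AT3G56130, which encodes a protein with a biotin/lipoyl attachment domain, had 0.804, 0.859 and 0.808 TPM (3 tags) against 15.7, 9.02 and 12.1 TPM in water, 15.2 times higher in water (4.95 to 75.7; log2 change -3.76 ± 0.66 (SE), adjusted p = 2.11e-06). In both loci the groups did not overlap. AT1G26218 overlaps AT1G26220, which had 5 sense tags in all.

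NAC069 (AT4G01550), a gene for a NAC transcription factor, had 2.41, 2.58 and 3.23 antisense TPM against 27.7, 20.6 and 16.6 TPM in water (log2 change -2.95 ± 0.74 (SE), adjusted p = 6.08e-04), and its sense tags fell as well (0, 0.859 and 0 TPM against 6.51, 8.37 and 5.27 TPM, log2 change -4.21 ± 0.83 (SE), adjusted p = 1.79e-05). Without replicate 2 the antisense fall of NAC069 was -2.76 (adjusted p = 0.0193). AT2G30230, a lumazine synthase gene with a run of 36 A, had 13.7, 17.2 and 24.2 TPM against 93.9, 83.7 and 90.4 TPM (log2 change -2.28 ± 0.50 (SE), adjusted p = 1.15e-04), and sense 1.61, 0.859 and 0 TPM against 14.7, 10.3 and 18.8 TPM (log2 change -3.99 ± 0.87 (SE), adjusted p = 1.03e-04). The fall of AT2G30230 was -1.83 (adjusted p = 0.0286) without replicate 1. SCPL4 (AT1G73310), a serine carboxypeptidase-like gene, had 3.22, 3.44 and 4.04 TPM against 12.5, 20.6 and 13.6 TPM (log2 change -2.09 ± 0.61 (SE), adjusted p = 0.00327), and that call was lost without replicate 1 (adjusted p = 0.0700), without replicate 3 (0.0384) and without plastid and mitochondrial loci (0.0101). All 3 loci kept their groups apart.

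**Figure D4:**
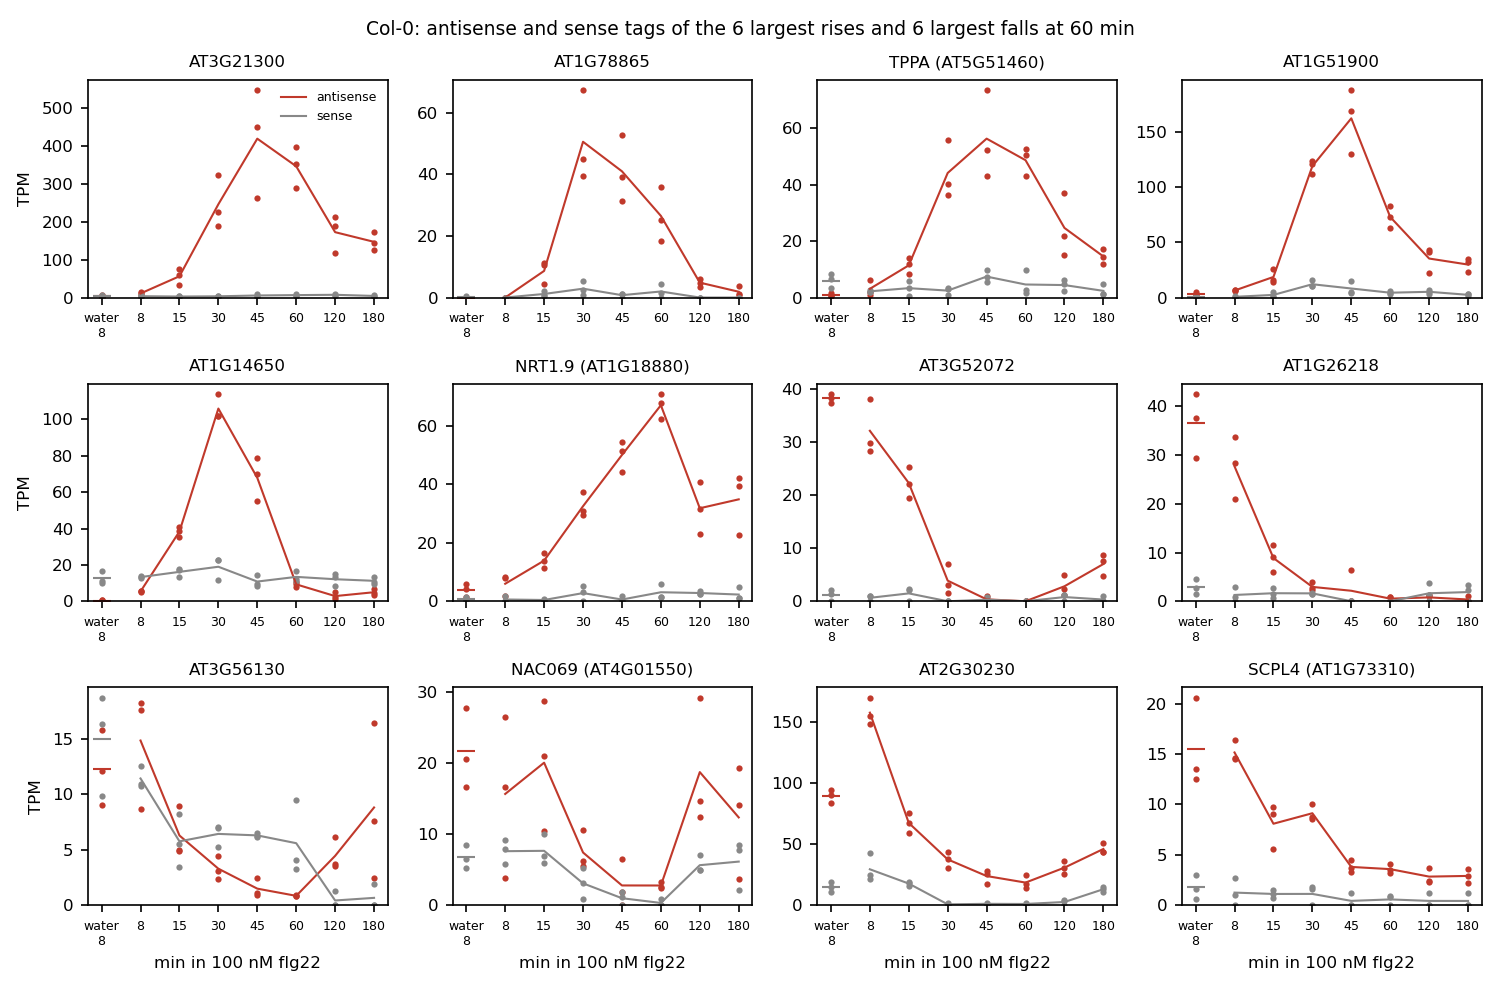
Antisense (red) and sense (grey) levels in Col-0, in TPM (linear scale), in 8 min of water and over 7 times of 100 nM flg22, for the 6 called loci with the largest fitted rise and the 6 with the largest fitted fall at 60 min; points are the 3 libraries, lines join flg22 means and dashes mark water means. Peaks of AT1G14650 at 30 min (102 to 114 TPM) and AT1G51900 at 45 min (129.9 to 187 TPM) precede the 60 min comparison.

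The sense tags of the same loci were tested beside the antisense tags. Of the 20 loci that rose at 60 min, the sense strand of 12 had enough tags to be tested; it rose in 3 and was not called in 9. Of the 11 that fell, 6 could be tested on the sense strand. It fell in 2 and was not called in 4. Among all features tested, 16.9% were called higher and 20.3% lower in this comparison. No locus was called in opposite directions on its strands at this time, and the sense tags are by the choice of loci the fewer.

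The ratio of the strands was tested directly at the 140 loci with at least 96 tags on each strand, in a fit that cancels library scaling. In Col-0 it changed at 10 loci, 6 towards antisense and 4 towards sense on average, when it did at 1.26% of 4359 loci tested. The 4359 loci needed only 96 tags on each strand, whereas each of the 140 had at least 1000 antisense tags by the rule. The shares of loci tested are therefore not a matched background. With the lane as a block 38 loci were called (3.69% of loci tested), and without replicate 3 only 3. The changed loci were 4 whole-tag loci (AT1G14650, AT3G21300 and TPPA towards antisense, and AT3G56130, which moved both ways with a mean log2 change of 0.51 and -2.28 at 60 min), 4 loci with a run (AT4G02320, AT1G30620, ACS2 and AT2G23770, all towards sense on average) and AT3G44020 and RAP2.4 among the others. In npr1-1 17 loci changed (1.95% of loci tested), in jar1-1 26 (2.43%) and in ein2-5 5 (0.711%); with the block these were 49 (4.82%), 60 (5.87%) and 37 (3.14%), and without 1 of the replicates 5 to 9, 7 to 10 and 2 to 3.

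In AT1G14650 and AT3G21300, the strand ratio moved by 4.81 and 5.12 on the log2 scale on average over the 7 times (adjusted p = 6.78e-13 and 9.80e-08). Both moved through the antisense rises given above. The rule that chose the loci summed libraries of 7 flg22 times and of water at 8 min only. A gain of antisense tags with flg22 thus favoured the choice of a locus, and these p-values take no account of it. AT3G44020, which encodes a thylakoid lumen protein, moved through its sense tags: 1.61, 2.58 and 2.42 TPM at 60 min against 20.6, 21.2 and 36.9 TPM in water (log2 change -3.51 ± 0.61 (SE), adjusted p = 1.86e-06), with antisense levels of 21.7, 24.9 and 31.5 TPM and 15.7, 21.9 and 20.3 TPM (log2 change 0.44 ± 0.55 (SE), adjusted p = 0.541). Its ratio changed by 3.54 on average (adjusted p = 6.98e-07), with the sense libraries of the groups apart and the antisense libraries overlapping.

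AT4G02320, a gene of the invertase and pectin methylesterase inhibitor family with a run of 34 A, went towards sense by -2.69 on average (adjusted p = 7.67e-10). Its sense tags had 9.65, 17.2 and 17.8 TPM at 60 min and 1.63, 4.51 and 3.01 TPM in water (log2 change 2.28 ± 0.91 (SE), adjusted p = 0.0323), and its antisense tags 8.04, 6.87 and 8.08 TPM and 24.4, 34.1 and 24.1 TPM (log2 change -1.83 ± 0.87 (SE), adjusted p = 0.0744). Neither strand passed the threshold by itself at 60 min, although in both the 3 libraries of a group lay apart from those of the other. All 4 ratios named here were also called in ein2-5.

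Of the 30 whole-tag loci, 19 overlap a gene on the other strand. For 11 of these the overlapping gene, 12 genes in all, had sense tags of its own in the tables. PGIP1, a polygalacturonase inhibitor gene, had 2 sense tags in 1 library, although AT5G06865, the non-coding RNA gene opposite, carried 10637 antisense tags in all 96 libraries. AT1G26220 and AT3G01175 had 5 and 69 sense tags. At the other end AT4G38550, the ammonium transporter gene AMT1;1 and AT3G52105 had more sense tags than their partner had antisense tags (42679, 47123 and 1983). The share of the summed tags of both loci that was counted for the overlapping gene ran from 0.0188% at PGIP1 to 89.1% at AMT1;1. The authors' rules for tags of overlapping genes are given with the processing below. How these rules acted at the loci named here was not tested.

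The 36 other shared-tag loci were a mixed set. Their longest run was 15 to 19 in 10 loci and under 15 in 26. They included a tRNA gene (AT4G26375, 2236 antisense tags), AT7SL-1, named for 7SL RNA, the RNA of the signal recognition particle, and AT1G24822 and AT1G25097, whose antisense tags (5426 and 5364) and falls at 60 min (log2 change -1.003 and -0.995, adjusted p = 0.00472 and 0.00485) were nearly the same. Values of such loci share tags with their copies and are uncertain for any 1 of them. AT7SL-1 fell at 60 min (log2 change -1.79, adjusted p = 9.55e-04).

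The same comparison with water was made in each mutant line. At 60 min 29 loci were called in npr1-1 (38.2% of all features), 40 in jar1-1 (40.4%) and 25 in ein2-5 (23.8%). Taken over all 7 times, npr1-1 had 45 calls (58.0%), jar1-1 56 (61.2%) and ein2-5 39 (47.1%). Whole-tag loci made up 18, 18 and 13 of the calls at 60 min. With the lane block the counts at 60 min were 71 (46.3% of all features), 122 (49.9%) and 70 (32.2%), and over all times 136 (68.6%), 176 (73.1%) and 138 (58.9%).

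The loci named for Col-0 took the same directions in the mutants at 60 min. AT3G21300 had 348, 231 and 394 TPM in npr1-1, 296, 281 and 164 TPM in jar1-1 and 89.1, 112 and 101 TPM in ein2-5, and at most 8.19 TPM in any of their water libraries. AT3G52072 had at most 3.73 TPM at 60 min in any mutant library and at least 26.2 TPM in water. All 6 rises and the falls of AT3G52072, AT1G26218 and AT3G56130 were called in each mutant line, whereas NAC069 and AT2G30230 missed the threshold in jar1-1 and ein2-5 and SCPL4 in ein2-5.

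Whether a mutant differed from Col-0 was asked in water, over the 7 flg22 times, and as a difference in the response to flg22. In water no locus was called in npr1-1 (0 by edgeR and by DESeq2, 8 at an unadjusted p under 0.05, 0.0595% of all features called) or in jar1-1 (0 by both, 8 at an unadjusted p under 0.05, 0.0357% called). Over the flg22 times 3 loci were called in npr1-1, all lower (0.571% of all features), and 1 in jar1-1, higher (1.02%). The response to flg22 differed at 0 loci in npr1-1 and 0 in jar1-1 (edgeR, 1 and 4 at an unadjusted p under 0.05, 0.00% of all features called in either). The 7 flg22 libraries of a replicate shared a lane, so that the p-values over the flg22 times rest on 3 lanes a genotype and are too small. The block takes the differences between lanes, which are the replicates here, out of the error: it gave 4 loci in npr1-1 (0.232% of all features) and 2 in jar1-1 (0.2498%) in water, 30 (2.43%) and 98 (8.10%) over the flg22 times and 0 (0.00%) and 1 (0.0119%) for the response.

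These 4 calls were read lane by lane. Antisense AT3G49310 had lane medians of 31.7, 61.0 and 1290.2 TPM in jar1-1 replicates 1, 2 and 3 and 24.8, 32.8 and 40.4 TPM in Col-0. Replicate 3 of jar1-1 stood at 732 to 1946 TPM under flg22 and at 578 TPM in water, above every other library of the series. The mean log2 change was 3.75 (adjusted p = 1.07e-04), and 0.52 (adjusted p = 0.837) without replicate 3.

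AT1G13635 had lane medians of 8.05, 18.6 and 10.9 TPM in npr1-1 and 157, 15.5 and 16.2 TPM in Col-0, with a mean log2 change of -2.44 (adjusted p = 0.00113) that became -0.24 (adjusted p = 1) without replicate 1 and was not called without replicate 3 either (adjusted p = 0.0710). AT1G48090 had 4.07, 10.9 and 6.82 TPM in npr1-1 and 16.4, 36.9 and 26.1 TPM in Col-0, where replicate 2 ran from 17.3 to 291 TPM (mean log2 change -2.27, adjusted p = 0.00101). AT4G17470 had 0, 1.07 and 0 TPM in npr1-1 and 18.7, 40.1 and 0.976 TPM in Col-0 (mean log2 change -5.56, adjusted p = 0.00170). Only AT1G48090 had every lane median of npr1-1 below those of Col-0, and both it and AT4G17470 lost the call whichever replicate was left out (adjusted p from 0.0418 to 0.136 and from 0.0157 to 1.00), while the mean log2 changes were then -2.23 to -2.19 and -6.32 to -5.004.

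In ein2-5, 9 loci differed from Col-0 in water, 4 higher and 5 lower, when 6.64% of all features did. Over the 7 flg22 times 18 did, 2 higher and 16 lower (16.5%). The response to flg22 differed at 1 locus (1.34%). With the block these were 22 (11.4%), 59 (25.8%) and 2 loci (3.52%), and without 1 of the replicates 5 in water, 11 to 26 over the flg22 times and 0 for the response. Of the 18, 8 were whole-tag loci.

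Antisense AT5G01215, on the strand opposite a long non-coding RNA gene, was the locus with the smallest p in each of the 3 comparisons. In water it had 11.1, 7.72 and 2.93 TPM in ein2-5 and 66.2, 34.8 and 69.3 TPM in Col-0 (log2 change -2.97 ± 0.47 (SE), adjusted p = 2.15e-06). Over flg22 the lane medians were 10.4, 6.56 and 6.90 TPM in ein2-5 and 71.9, 52.7 and 96.2 TPM in Col-0 (mean log2 change -2.59, adjusted p = 1.59e-18). The water libraries and the lane medians of ein2-5 lay below all those of Col-0.

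Its time course differed between the lines as well. In ein2-5 it stayed low, with 2.90, 6.56 and 11.3 TPM at 45 min and 13.5, 8.95 and 12.7 TPM at 180 min, whereas in Col-0 it had 9.70, 8.89 and 4.90 TPM at 45 min and 116, 135 and 239 TPM at 180 min. At 45 and 60 min the lines overlapped, and at the other times they were apart. The test of a different response gave adjusted p = 0.00424, and 0.0888, 0.0923 and 0.497 without replicate 1, 2 or 3. AT5G01210, an acyltransferase family gene that overlaps AT5G01215 on the other strand, had 2.60, 1.40 and 0.585 sense TPM in ein2-5 and 8.14, 7.73 and 10.5 sense TPM in Col-0 in water, and these groups did not overlap.

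AT1G66460, a protein kinase gene, went the other way. Its antisense level in water was 74.8, 29.5 and 84.9 TPM in ein2-5 and 11.9, 0 and 6.78 TPM in Col-0 (log2 change 3.28 ± 0.56 (SE), adjusted p = 8.44e-06), and its lane medians over flg22 were 112, 125 and 122 TPM in ein2-5 and 26.5, 17.8 and 20.8 TPM in Col-0 (mean log2 change 2.13, adjusted p = 1.52e-11). It rose against water at 60, 120 and 180 min in both lines, with 195, 182 and 198 TPM at 180 min in ein2-5 and 71.3, 29.2 and 83.2 TPM in Col-0. The lines were apart in water and at every flg22 time, and a difference in response was not called (adjusted p = 0.985). Its sense strand had at most 2.26 TPM in the water and 60 min libraries of either line.

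AT5G06865, the non-coding RNA gene opposite PGIP1, was called in water, with 76.1, 114 and 73.2 TPM in ein2-5 and 26.6, 24.5 and 33.9 TPM in Col-0 (log2 change 1.63 ± 0.34 (SE), adjusted p = 3.07e-04). Over flg22 its lane medians were 104, 94.4 and 108 TPM in ein2-5 and 84.1, 99.8 and 58.8 TPM in Col-0, and the comparison was not called (adjusted p = 0.178). At 15 min it had 122, 224 and 176 TPM in ein2-5 and 168, 169 and 80.6 TPM in Col-0, where the lines overlapped. The water call was lost without replicate 1 (adjusted p = 0.0198) and without replicate 2 (0.0455), and the difference in response was not called (adjusted p = 0.160).

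Antisense AT4G38545 was lower in ein2-5 over flg22, with lane medians of 126, 123 and 139 TPM in ein2-5 and 261, 262 and 228 TPM in Col-0 (mean log2 change -0.98, adjusted p = 3.26e-12). In water it had 103, 52.6 and 83.1 TPM in ein2-5 and 154, 117 and 119.8 TPM in Col-0, a difference that missed the threshold (log2 change -0.71 ± 0.24 (SE), adjusted p = 0.0382). It rose to 60 min in both lines and then fell back, and a difference in response was not called (adjusted p = 0.679). Antisense AT3G21300 was also lower in ein2-5 over flg22 (mean log2 change -1.68, adjusted p = 4.52e-09), with a difference in response that was not called (adjusted p = 0.729).

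**Figure D5:**
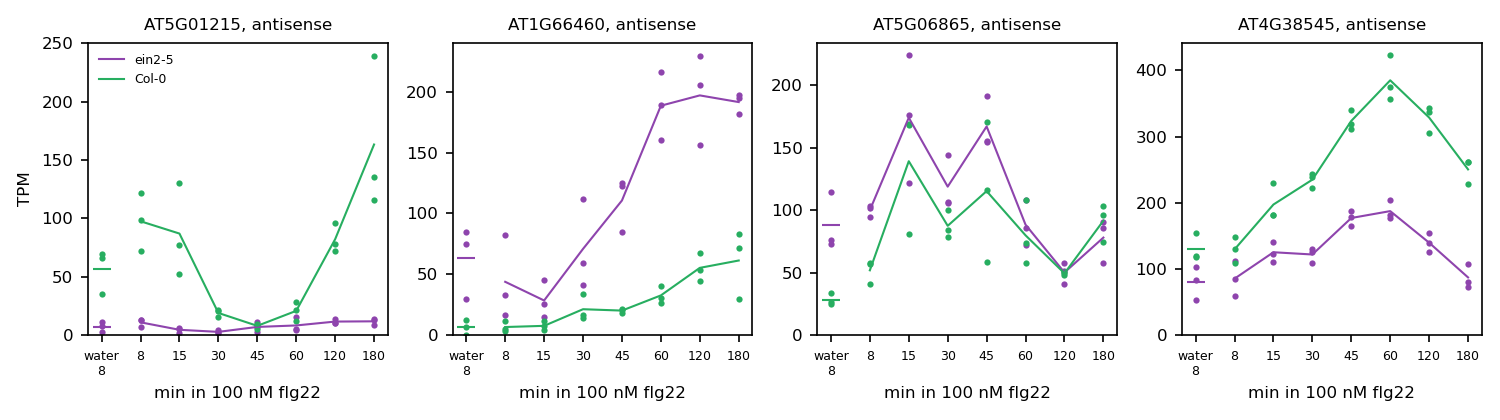
Antisense levels of 4 whole-tag loci in ein2-5 (purple) and Col-0 (green), in TPM (linear scale), in 8 min of water and over 7 times of 100 nM flg22; points are the 3 libraries, lines join flg22 means and dashes mark water means. AT5G01215 stays at or below 15.1 TPM in ein2-5 and reaches 239 TPM in Col-0, and every ein2-5 library of AT1G66460 lies above the Col-0 libraries of its time.

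Of the shared-tag loci called in ein2-5, 3 were read without single replicates. AT1G48090 was lower in ein2-5 in water (2.60, 4.91 and 0 TPM in ein2-5 against 19.54, 191.9 and 33.1 TPM in Col-0, log2 change -5.04, adjusted p = 4.33e-04), which missed the threshold without replicate 2 (log2 change -4.25, adjusted p = 0.0306). Over flg22 it was lower as well (mean log2 change -2.64, adjusted p = 1.55e-05) and stayed called without replicate 1, 2 or 3 (-2.67, -3.26 and -2.26, adjusted p = 0.00183, 4.29e-04 and 0.00215). AT1G13635 was called over flg22 (mean log2 change -2.98, adjusted p = 2.15e-06) and not without replicate 1 (-0.91, adjusted p = 0.653). AT4G17470, of the other shared-tag loci, was called (-5.62, adjusted p = 1.54e-04) and not without replicate 2 (-5.75, adjusted p = 0.269).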

How the data were processed

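Tags from cDNA 3′ ends (Tag-seq) were given by the authors as 1 table per library with a value per sense and antisense locus. The deposited values are estimated counts: reads were aligned with Bowtie 0.12.8 to TAIR10 and then to transcripts, a read that matched up to 10 genes was divided equally, tags of overlapping genes were divided, and antisense tags closer than 500 bp to a sense gene's 3′ end were not counted as antisense. Divided tags and near-identical copies therefore make values of single loci uncertain.

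Values were rounded and tested with edgeR 4.0.16 (quasi-likelihood, TMM scaling, filterByExpr) in R 4.3.3 over all 96 libraries and 16816 features. An adjusted p (Benjamini-Hochberg) under 0.01 was called. TPM are tags per 1000000 after TMM scaling and carry no length correction. Strand ratios were tested with the dispersion (0.102) estimated on every 20th of 4359 loci. A TMM fit with the lane as replicate block, DESeq2 1.42.0, limma 3.58.1, other scalings, no low-count filter and leaving out each replicate were alternatives. Libraries of 1 genotype and replicate shared a lane, as a deposited list of lanes gives it. The replicate numbers thus pair samples within a genotype. The mean correlation of lane mates' deviations was 0.584 in ein2-5, 0.388 in npr1-1, 0.323 in jar1-1 and 0.330 in Col-0. Over the antisense loci described here alone it was 0.575, 0.535, 0.593 and 0.461 in the same order.

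On simulated data for Col-0 at 60 min (14712 features), 36 of 50 genes raised 4-fold and 19 of 50 lowered 4-fold were recovered, and 2 of 50 changed 2-fold in either direction, with 1 call among 14512 unchanged features. Of simulated strand ratios (600 loci), 48 of 50 raised 16-fold, 9 of 50 raised 4-fold, 3 of 45 lowered 4-fold and 13 of 41 lowered 16-fold were recovered. The simulated counts had no lane effects and a single dispersion for all loci, unlike the data, so that these rates need not hold for the loci described here. Runs of A were read from TAIR10.1 in RefSeq by locus name. Members, lists and tests were chosen with earlier results of these data known. Named loci are the 12 with the most antisense tags, the 6 largest called rises and falls by fitted change in Col-0 at 60 min, the 3 called loci of smallest p in each mutant comparison, the 4 of smallest p for the strand ratio, those at the edges of the rule, and overlapping genes. Of 97 samples, 1 with no group in the labels was left out.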

Additional observations from a re-analysis of the deposited data

Results flagged for a closer look

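The response of antisense AT5G01215 to flg22 differed between ein2-5 and Col-0 by the test of the difference itself (edgeR interaction over the 7 times, adjusted p = 0.00424, mean log2 difference 0.38). The call was lost without replicate 1, 2 or 3 (adjusted p = 0.0888, 0.0923 and 0.497). Values of both lines at each time stand in the report.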

How the results depend on the processing

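Of 204 alternative values for counts of loci, 117 stayed within 1.5 times the main count and 87 did not, and of 176 for single named loci 157 kept their call, 19 lost it and none turned direction. With the lane as replicate block the counts against water in Col-0 were 23, 36, 59, 66, 62 and 68 at 15, 30, 45, 60, 120 and 180 min and 106 over all times, at 60 min 71, 122 and 70 in npr1-1, jar1-1 and ein2-5, and over all times 136, 176 and 138. The block gave 4, 2 and 22 loci for npr1-1, jar1-1 and ein2-5 against Col-0 in water, 30, 98 and 59 over the flg22 times, 1 and 2 for the responses of jar1-1 and ein2-5, and 49 strand ratios in npr1-1, 60 in jar1-1, 37 in ein2-5 and 38 in Col-0. Without the low-count filter the Col-0 counts were 2, 54, 58, 54 and 50 at 8, 45, 60, 120 and 180 min and 88 over all times, at 60 min 60, 114 and 75 in npr1-1, jar1-1 and ein2-5, and over all times 113, 155 and 149. Without it the mutant counts, in the same order, were 5, 7 and 22 in water, 41, 75 and 49 over the flg22 times and 3, 5 and 10 for the response. DESeq2 called 0 loci at 8 min, scaling by total tags 2 in jar1-1 over the flg22 times, and limma 16 strand ratios in Col-0 and 15 in ein2-5. Without the low-count filter more features were tested, and the share of all features called then is not given here. Those counts are therefore not comparable with the main ones by themselves. The cause of these shifts was not tested.

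Without 1 replicate, the Col-0 counts ranged over 0 to 0, 7 to 8, 16 to 18, 20 to 27, 18 to 31, 13 to 28 and 14 to 23 from 8 to 180 min and over 27 to 43 for all times. For npr1-1, jar1-1 and ein2-5 they were 18 to 31, 24 to 50 and 16 to 19 at 60 min, and over all times 28 to 50, 34 to 59 and 23 to 28. Against Col-0 they were 0 to 0, 0 to 0 and 5 to 5 in water, 0 to 2, 1 to 1 and 11 to 26 over the flg22 times and 0 to 0 for each response. Strand ratios were called at 3 to 9 loci in Col-0, 5 to 9 in npr1-1, 7 to 10 in jar1-1 and 2 to 3 in ein2-5. The rule itself took 173 to 204 loci without 1 replicate, 203 by mean tags per 1000000, 264 with a minimum of 500 tags and 174 where antisense had to be at least 2 times sense.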
